A study of Homo sapiens with 24 samples.

Results

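The genes described here are 10 regulators of the G1 phase, namely the D cyclins CCND1, CCND2 and CCND3, the E cyclins CCNE1 and CCNE2, the kinases CDK2, CDK4 and CDK6, and the inhibitors CDKN1B and CDKN2C. They were chosen by name and make up 10 of the 21386 genes in each count table. RNA was sequenced from the melanoma line A375 and the lung adenocarcinoma line A549, each in 4 groups of 3 libraries, 24 in all. In each line, cells transduced with a Dox-inducible shRNA against MCM7 (shMCM7 cells) and untransduced parental cells were kept for 72 hours with 1 µg/ml Dox or without Dox (noDox). A double thymidine block held the cells of all 8 groups at the border of G1 and S phase. The knockdown rests on 1 shRNA sequence carried in the vector pRSIT17, and the parental cells stand in for a control shRNA. The A375 libraries held 146656792 to 283721575 counts and the A549 libraries 17911338 to 23452823. Levels are given as CPM, counts scaled to library size with edgeR's TMM factors within a line.

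In G1, D cyclins bind CDK4 or CDK6 and E cyclins bind CDK2, and the active kinases phosphorylate the retinoblastoma protein, which releases E2F transcription factors and lets cells enter S phase. CDKN1B (p27) binds cyclin and kinase complexes and blocks CDK2 above all, whereas CDKN2C (p18) belongs to the INK4 inhibitors, which bind CDK4 and CDK6. A double thymidine block stops cells at the start of DNA synthesis, after this switch has been used. MCM7, the target of the shRNA, is a subunit of the MCM helicase that is loaded on replication origins during G1.

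The shRNA sequence is shown because every comparison of shMCM7 cells depends on it. It matched 5 annotated transcripts (GENCODE 29), which all belong to 1 gene, MCM7. On the minus strand of chromosome 7 (GRCh38) its 21 bases fall across a junction of coding exons, with 3 bases at chr7:100097834-100097836 and 18 bases at chr7:100097728-100097745. The capitals mark the 7 bases that pair with positions 2 to 8 of the guide strand, its seed.
shRNA target in MCM7: cagaggaggatttCTACGAAa
Of the 10 regulators, 1 held this seed site in its longest transcript, CCND2, which was hardly detected. Among the genes tested in A375 the site was present in 901 of 16056 longest transcripts (5.61%). No seed site was found in the longest transcript of CCND1, CCND3, CCNE1, CCNE2, CDK2, CDK4, CDK6, CDKN1B or CDKN2C.

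MCM7 was checked before the regulators were compared, since it shows whether the knockdown took place in each library. In A375 it stood at 76.8, 76.4 and 77.2 CPM in the libraries labelled shMCM7 Dox and at 342 to 370 CPM in the 6 parental libraries. Without Dox, shMCM7 libraries 2 and 3 had 353 and 359 CPM and library 1 had 131 CPM. In A549 the MCM7 level went against the labels. It was 299, 333 and 95.3 CPM in the libraries labelled shMCM7 Dox, 329, 99.7 and 309 CPM in those labelled shMCM7 noDox, 314, 88.6 and 339 CPM in those labelled parental noDox, and 324 to 330 CPM in those labelled parental Dox. Melanocyte lineage markers summed to 581 to 747 CPM in A375 and to 36.9 to 53.1 CPM in A549. Epithelial markers summed to 297 to 492 CPM in A375 and to 5414 to 7544 CPM in A549. SOX10 made up most of the first sum in A375, and KRT7, KRT8 and KRT18 most of the second in A549. Not every marker followed its sum. Group means of MITF were 28.9 to 42.3 CPM in A375 and 38.5 to 45.9 CPM in A549. Those of CLDN4 were 7.67 to 17.6 CPM in A375 and 2.86 to 3.59 CPM in A549. SOX10, a transcription factor of the melanocyte lineage, lay at 501 to 677 CPM in A375, whereas the pigment cell markers MLANA and TYR had 0 to 2 counts in each A375 library. The A375 results therefore come first, and the A549 libraries are described by label and 1 by 1.

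In A375 shMCM7 cells, Dox was followed by a large rise of CCND1 and by small changes of 4 other regulators. CCND1 rose 2.29-fold, CDK6 rose 1.33-fold and CDKN1B rose 1.22-fold, whereas CCND3 and CDKN2C fell 1.22-fold and 1.18-fold. CCNE1, CCNE2, CDK2 and CDK4 did not pass the test. Of 9 regulators tested, 5 passed an FDR of 0.05 (edgeR's quasi-likelihood test, adjusted by Benjamini-Hochberg over all genes tested), 3 of them higher and 2 lower with Dox. Over all 16087 genes tested, 42.9% passed, 20.6% higher and 22.4% lower, so the share among the regulators lay near that of all genes. With the study's thresholds of a fold change of at least 1.5 and an unadjusted p under 0.01 added, 1 of the 9 was called, CCND1, against 12% of all genes. The median log2 fold change of the 9 was 0.02, beside 0.00 for all genes. In bulk RNA, fewer cells in a phase and less RNA per cell cannot be told apart.

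**Figure D1:**
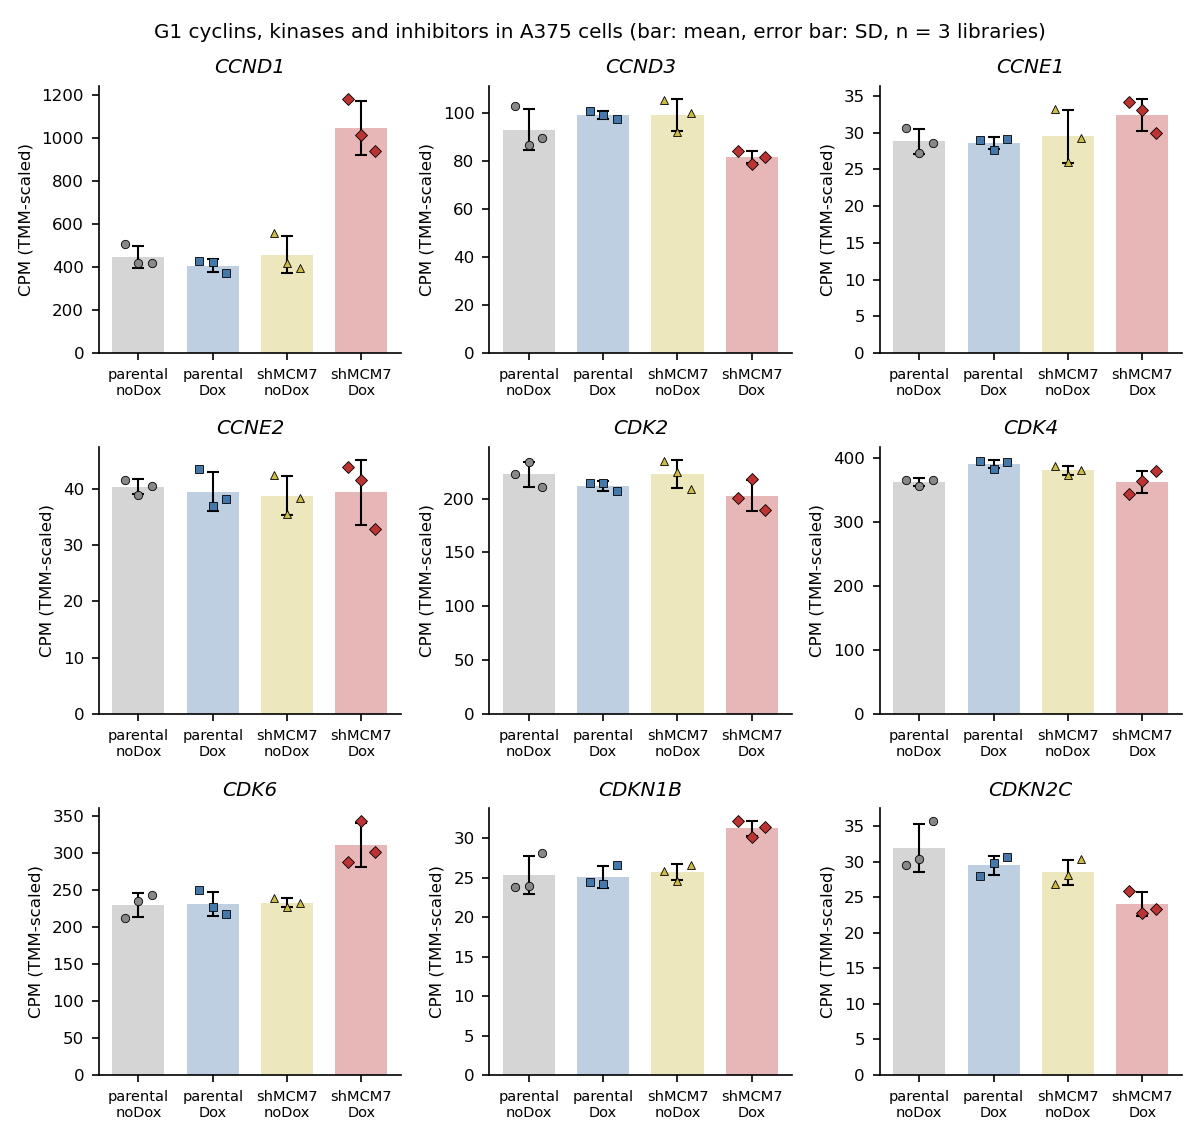
Level of each regulator in the 12 A375 libraries in CPM, by group, with points for libraries, bars for the mean and error bars for the SD (n = 3). CCND1 lies between 942 and 1185 CPM in the induced shMCM7 libraries and between 371 and 557 CPM in the other 9, and CDK6 and CDKN1B are also highest with induction, while CCND3 and CDKN2C are lowest there.

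CCND1 (ENSG00000110092, chr11:69641087-69654474) encodes cyclin D1, which couples growth signals to CDK4 and CDK6. It stood at 1185, 1016 and 942 CPM in induced shMCM7 cells and at 557, 418 and 398 CPM without Dox. The 3 induced libraries thus all lay above the highest uninduced library. The log2 fold change was 1.19 ± 0.129 (SE), with an FDR of 0.000155. Parental cells had 427, 424 and 371 CPM with Dox and 507, 418 and 421 CPM without, and these groups overlapped. The uninduced shMCM7 library with 131 CPM of MCM7 had 557 CPM of CCND1, the highest value of the 9 libraries outside the induced group. Without that library the log2 fold change was 1.36, with an FDR of 4.34e-05. An exon of LTO1 lies on the opposite strand over part of CCND1, and whether the counting used strand is not given in the sources used here. LTO1 itself stood at 27.7 to 36.4 CPM in A375 and its log2 fold change was 0.10 ± 0.0754 (SE, FDR 0.326).

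CCND3 (ENSG00000112576, chr6:41934933-42050357), the cyclin D3 gene, moved the other way. It stood at 84.1, 79.0 and 81.9 CPM with induction and at 106, 92.3 and 99.98 CPM without. These groups did not overlap either, and the log2 fold change was -0.28 ± 0.0603 (SE, FDR 0.00472). Parental cells had 101, 99.2 and 97.4 CPM with Dox and 103, 86.7 and 89.6 CPM without. CCND2 (ENSG00000118971, chr12:4273772-4305350), which encodes cyclin D2, had 3 to 11 counts in each A375 library and 0 to 2 in each A549 library. A count of 3 corresponds to 0.0106 to 0.0205 CPM in A375 libraries, whereas the shallower A549 libraries reach 0.128 to 0.167 CPM, for counting error alone. CCND2 was left out of every test by the filter on low counts.

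CCNE1 and CCNE2 encode the cyclins E1 and E2, the partners of CDK2 in late G1. CCNE1 (ENSG00000105173, chr19:29811898-29824308) stood at 34.3, 33.0 and 29.9 CPM in induced shMCM7 cells and at 33.2, 26.0 and 29.3 CPM without Dox, and the groups overlapped. Its log2 fold change was 0.13 ± 0.0907 (SE, FDR 0.257). CCNE2 (ENSG00000175305, chr8:94879770-94896678) stood at 43.8, 41.5 and 32.8 CPM with induction and at 42.4, 35.5 and 38.4 CPM without. Its log2 fold change was 0.02 ± 0.106 (SE, FDR 0.887), and its 3 induced libraries spread over a wider range than the uninduced ones. In parental cells the CPM of CCNE1 was 27.3 to 30.7 and that of CCNE2 was 36.8 to 43.4 over both treatments. Exons of INTS8 overlap CCNE2 on the other strand, and INTS8 lay at 51.4 to 63.4 CPM with a log2 fold change of -0.08 ± 0.0513 (SE, FDR 0.25).

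Among the kinases, CDK6 passed the test and CDK2 and CDK4 did not. CDK6 (ENSG00000105810, chr7:92604921-92836594) stood at 288, 344 and 301 CPM in induced shMCM7 cells and at 240, 227 and 233 CPM without Dox, with no overlap. Its log2 fold change was 0.41 ± 0.0696 (SE, FDR 0.00139), which is below the fold threshold of 1.5. Parental cells had 250, 228 and 218 CPM with Dox and 212, 236 and 243 CPM without. CDK4 (ENSG00000135446, chr12:57747727-57756013), the other partner of the D cyclins, stood at 344, 364 and 379 CPM with induction and at 388, 374 and 381 CPM without. Its log2 fold change was -0.07 ± 0.0537 (SE, FDR 0.295). Parental cells had 395, 383 and 394 CPM of CDK4 with Dox and 366, 356 and 366 CPM without, so that here the groups did not overlap although the FDR was 0.699. TSPAN31, whose exons overlap CDK4 on the other strand, stood at 26.9 to 42.8 CPM and rose by 0.47 ± 0.0691 (log2, SE, FDR 0.000713) in shMCM7 cells, and the part of its reads in the CDK4 count was not tested. CDK2 (ENSG00000123374, chr12:55966769-55972784), the partner of the E cyclins, stood at 200, 218 and 190 CPM with induction and at 235, 225 and 209 CPM without. The groups overlapped and the log2 fold change was -0.14 ± 0.067 (SE, FDR 0.122), which passed when shMCM7 Dox library 2 was left out. PMEL overlaps CDK2 on the other strand and fell by 0.92 ± 0.188 on the log2 scale (SE, FDR 0.00388), but at 1.91 to 5.24 CPM in A375 its level was small beside that of CDK2.

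Both inhibitors passed the test, in opposite directions. CDKN1B (ENSG00000111276, chr12:12715058-12722371) stood at 32.1, 30.2 and 31.4 CPM in induced shMCM7 cells and at 25.8, 24.6 and 26.6 CPM without Dox. No induced library overlapped an uninduced one, and the log2 fold change was 0.28 ± 0.0577 (SE, FDR 0.00386). Parental cells had 24.4, 24.2 and 26.6 CPM with Dox and 23.8, 24.0 and 28.1 CPM without. CDKN2C (ENSG00000123080, chr1:50960745-50974633) stood at 26.0, 22.9 and 23.4 CPM with induction and at 26.9, 28.1 and 30.5 CPM without. The highest induced and the lowest uninduced library lay close together, and the log2 fold change was -0.24 ± 0.0718 (SE, FDR 0.0216). This pass was lost when shMCM7 Dox library 2 or 3 or shMCM7 noDox library 2 or 3 was left out. Parental cells had 28.0, 29.8 and 30.7 CPM of CDKN2C with Dox and 29.6, 30.4 and 35.8 CPM without.

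Parental cells show what Dox does without the shRNA. There 0 of 9 regulators passed the test in A375, beside 0 of 15993 genes (0%) in edgeR's quasi-likelihood test. At an unadjusted p under 0.05 there were 1121 genes and 1 regulator, CDK4, whose log2 fold change was 0.10 ± 0.0456 (SE). DESeq2's Wald test passed 45 genes at the same FDR and 0 regulators. The log2 fold changes of the 9 regulators in parental cells lay between -0.14 for CCND1 and 0.10 for CDK4.

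The difference between the Dox effects of shMCM7 and parental cells was tested in 1 fit over the 12 A375 libraries. It passed for 5 of 9 regulators, beside 30% of the 16334 genes tested, and CCND1 was called by fold and p as well, as were 10.5% of all genes. For CCND1 the difference was 1.33 ± 0.172 (log2, SE), with an FDR of 0.000107. CDK6 differed by 0.41 ± 0.103 (FDR 0.00916), CDKN1B by 0.30 ± 0.0976 (FDR 0.0346) and CCND3 by -0.37 ± 0.0919 (FDR 0.00795). CDK4 differed by -0.18 ± 0.0641 at an FDR of 0.0495. CDK4 had not passed in shMCM7 or in parental cells alone, and this pass was lost with DESeq2's size factors, without a filter and when any library other than shMCM7 Dox 3 was left out. The pass of CDKN1B was lost when shMCM7 Dox library 1 or 3, shMCM7 noDox library 2, parental Dox library 1 or 2 or parental noDox library 3 was left out. CDKN2C did not pass here, with a difference of -0.13 ± 0.111 (FDR 0.397), nor did CCNE1, CCNE2 and CDK2.

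**Figure D2:**
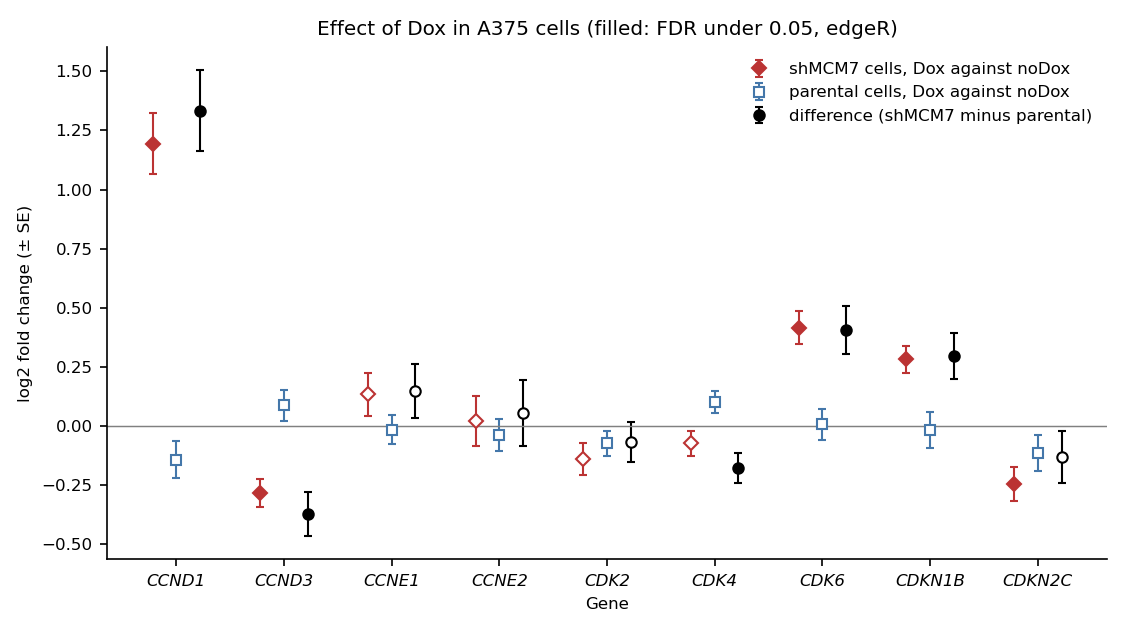
Log2 fold change with Dox for 9 regulators in A375 shMCM7 cells and parental cells, and the difference of these effects, as points with SE bars and filled where the FDR is under 0.05. CCND1 stands apart at 1.19 in shMCM7 cells and -0.14 in parental cells, whereas the other regulators stay between -0.37 and 0.41.

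Induced shMCM7 cells were also compared with parental cells kept on Dox, a comparison that shares the 3 induced libraries with the one above. There 6 of 9 regulators passed, beside 48% of 16086 genes, and CCND1 was called, as were 16% of genes. The log2 difference was 1.36 ± 0.0924 (SE) for CCND1, 0.42 ± 0.0767 for CDK6, 0.31 ± 0.0613 for CDKN1B, -0.28 ± 0.049 for CCND3 and -0.30 ± 0.0688 for CDKN2C. CCNE1 passed as well, at 0.18 ± 0.0642 and an FDR of 0.045, with 3 induced libraries at 29.9 to 34.3 CPM above the 3 parental libraries at 27.7 to 29.1 CPM. CCNE1 did not pass with the dispersion of 12 libraries, with the replicate block or in 5 of the 6 fits that left out 1 library, and it passed without shMCM7 Dox library 3. Uninduced shMCM7 cells and parental cells without Dox differed in 0 of 9 regulators, beside 2.97% of 16093 genes, and at an unadjusted p under 0.05 the number was also 0 of 9, beside 2612 genes. DESeq2's Wald test also passed 0 regulators there, whereas the replicate block passed 1, CDKN2C. The largest log2 difference between the uninduced groups was -0.17 ± 0.0789 (SE), for CDKN2C.

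Levels of different genes were compared per kilobase of exon (CPM per kb), with all annotated exons of a gene joined. For CCND3 this length is 5802 bases, whereas its longest transcript has 2394. The same lengths are 3168 and 2076 bases for CDK4, 4830 and 4307 for CCND1, and 12260 and 11612 for CDK6. The place of CCND3 in the orders below therefore depends on the length used, and levels per transcript length were not computed. In uninduced parental A375 cells the order was CDK4 at 115 ± 1.89, CCND1 at 92.9 ± 10.4, CDK2 at 57.1 ± 2.98, CDK6 at 18.8 ± 1.33, CCND3 at 16.0 ± 1.49 and CCNE1 at 11.3 ± 0.679 CPM per kb (SD, n = 3 each). CDKN2C, CCNE2 and CDKN1B followed at 9.62 ± 1.02, 9.17 ± 0.303 and 9.01 ± 0.873 CPM per kb. The ranges of CDK6 and CCND3 overlapped, as did those of each pair of neighbours from CCNE1 to CDKN1B. With induction of the shRNA, CCND1 came first in the order, at 217 ± 25.7 CPM per kb, ahead of CDK4 at 114 ± 5.5. In A549 parental cells with Dox, whose 3 libraries had MCM7 in 1 narrow range, CDK4 and CCND1 again led, at 71.0 ± 0.248 and 66.7 ± 1.46 CPM per kb. CCND3 followed there at 52.4 ± 0.958 and CCNE1 at 30.5 ± 0.969 CPM per kb, ahead of CDK2 at 24.7 ± 1.21. CDKN1B, CCNE2 and CDK6 came later in that group, at 9.68 ± 0.329, 8.93 ± 0.317 and 8.42 ± 0.466 CPM per kb, and the ranges of CCNE2 and CDK6 overlapped. The lines were scaled separately and differed in depth, so these orders were not tested against each other. CCND2, CCND3 and CDK4 have named pseudogenes in GENCODE 29, and reads that fit both copies may have been split or lost in the counting.

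The balance between related genes was described as the share of 1 paralog in their summed CPM per kb, with the joined exon lengths. The size of a share depends on these lengths, such as 5802 bases for CCND3, whose longest transcript has 2394. CCND1 made up 94.4%, 93.9% and 93.2% of the D cyclins in induced shMCM7 cells and 86.4%, 84.5% and 82.7% without Dox. The mean difference was 9.35 percentage points, with p = 0.1 in a two-sided exact permutation test, the smallest p that 3 against 3 libraries allow (adjusted p = 0.2 over 6 tests). In parental cells the share was 83.6%, 83.7% and 82.1% with Dox and 85.5%, 85.3% and 84.9% without, a difference of -2.13 points with the same exact p of 0.1. CDK6 made up 17.8%, 19.6% and 17.0% of CDK4 and CDK6 together with induction and 13.8%, 13.6% and 13.6% without, a difference of 4.50 points (exact permutation p = 0.1, adjusted p = 0.2). In parental cells this share was 12.5% to 14.6% over both treatments. CCNE2 made up 42.6%, 42.1% and 38.9% of the E cyclins with induction and 42.5%, 44.1% and 43.2% without (exact permutation p = 0.2, adjusted p = 0.3). This design cannot reach a p of 0.05 for any of the 6 tests. As a share of counts, with no division by length, CCND1 had 92.0% to 93.4% with induction and 79.9% to 84.1% in uninduced shMCM7 cells. For CDK6 the share of counts was 44.3% to 48.6% with induction and 37.8% to 38.2% without.

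**Figure D3:**
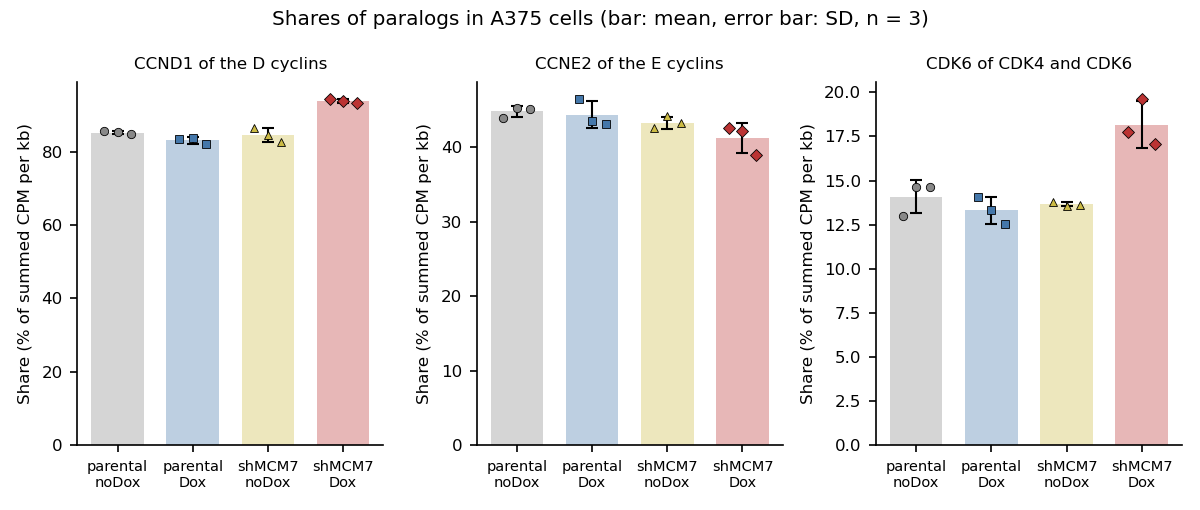
Share of CCND1 among the D cyclins, of CCNE2 among the E cyclins and of CDK6 in the sum of CDK4 and CDK6 (percent of summed CPM per kb) in the 12 A375 libraries, with points for libraries, bars for means and error bars for the SD (n = 3). The induced shMCM7 libraries lie above the others for CCND1, at 93.2% to 94.4%, and for CDK6, at 17.0% to 19.6%.

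Across the 12 A375 libraries, CCND1 varied with CDK6 (Pearson's r of log2 CPM 0.863) and CDKN1B (r = 0.819) and against CDKN2C (r = -0.804) and CCND3 (r = -0.681). These values describe 12 libraries of 4 groups, of which the induced group stands apart, and carry no test. Patterns were compared over 13160 genes, from which MCM7 and the genes of the lists were then left out. Those most like that of CCND1 were the patterns of FRMPD4 and TFAP2C (r = 0.986 each) and MX2 (r = 0.985). SOCS5, PANK3 and USF3 were most like CDK6 (r = 0.984, 0.982 and 0.979), and TMEM200B, WNT2B and SPRED3 most like CDKN1B (r = 0.959, 0.956 and 0.956).

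The promoters of CDK6 and CDKN1B are shown because both genes rose with induction in A375 and were high together in the same A549 libraries described below. RefSeq windows of 300 bases around annotated starts (GRCh38.p14) were at hand for 6 of the 10 regulators, namely CCND3, CCNE1, CDK4, CDK6, CDKN1B and CDKN2C. The windows were searched on both strands for the E2F motifs TTTCCCGC, TTTGGCGC, TTTGCCGC and TTTCGCGC and for the forkhead motif GTAAACA, none of which contains another. A further window of CDK6, at chr7:92833910-92834209 on the minus strand, held none of these motifs and is not shown.
CDK6, chr7:92836524-92836823, minus strand: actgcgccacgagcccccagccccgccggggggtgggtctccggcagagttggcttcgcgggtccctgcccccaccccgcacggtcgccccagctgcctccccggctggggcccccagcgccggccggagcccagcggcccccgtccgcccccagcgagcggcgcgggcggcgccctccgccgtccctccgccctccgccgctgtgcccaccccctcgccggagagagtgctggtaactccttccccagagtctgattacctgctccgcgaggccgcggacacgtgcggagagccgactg
CDKN1B, chr12:12717118-12717417, plus strand: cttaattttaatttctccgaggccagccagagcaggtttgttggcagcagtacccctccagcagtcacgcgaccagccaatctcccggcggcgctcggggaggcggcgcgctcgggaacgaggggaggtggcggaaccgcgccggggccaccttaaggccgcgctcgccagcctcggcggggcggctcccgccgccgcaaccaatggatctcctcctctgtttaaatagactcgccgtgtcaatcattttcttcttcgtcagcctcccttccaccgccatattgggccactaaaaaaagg
Of 11 windows of these 6 genes, 0 held an E2F motif, beside 3.31% of 35116 windows of all genes. The forkhead motif was found in 1 of the 11, beside 3.42% of all windows. It spans an annotated start of CCND3 and is written in capitals in the 30 bases around it.
CCND3, chr6:42048672-42048701, minus strand: gcgcggactttGTAAACActtcgccactgc
These matches describe letters in the windows and carry no statement on binding.

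Other genes of the cell cycle machinery were taken from 6 lists, whose counts stand beside the 42.9% of all genes that passed in shMCM7 cells (20.6% higher and 22.4% lower). Of the other CDK inhibitors, 4 of 5 were tested in shMCM7 cells and 1 rose and 1 fell. CDKN1C (p57) rose by 1.43 ± 0.259 (log2, SE, FDR 0.00204), at 3.3 to 7.3 CPM with induction and 1.7 to 2.4 CPM without, and CDKN1A (p21) fell by 0.64 ± 0.055 on the log2 scale (FDR 6.4e-05), at 727 to 747 CPM against 1088 to 1184 CPM. Of 5 genes of CDK activation, 1 fell, CDK7, by 0.17 ± 0.0585 on the log2 scale (FDR 0.0402). The difference of the Dox effects for CDK7, -0.08 ± 0.0772 (log2, SE, FDR 0.475), did not pass. Of 9 genes of cyclin and inhibitor turnover, 2 rose and 2 fell. Among them GSK3B, a kinase that marks cyclin D1 for export and breakdown, rose by 0.74 ± 0.0535 (log2, SE, FDR 3.7e-05), and SKP2, the ubiquitin ligase subunit that targets p27, fell by 0.68 ± 0.0683 on the log2 scale (FDR 0.000111). Of 13 pocket proteins and E2F factors, 1 rose and 3 fell, and 0 were called by fold. Of 4 S and G2/M cyclins and CDK1, 3 fell, namely CCNB1 by 0.92 ± 0.0868, CDK1 by 0.60 ± 0.0654 and CCNB2 by 0.60 ± 0.0631 on the log2 scale, while CCNA2 stood at -0.12 ± 0.0671 (FDR 0.164). Of 10 G2/M markers, 9 fell, with PLK1 lower by 0.85 and AURKA lower by 0.75 on the log2 scale. Most, but not all, markers of cells past G1 therefore moved with the induced group. The 10 G2/M markers summed to 1115 to 1228 CPM with induction and to 1446 to 1518 CPM in uninduced shMCM7 cells. In parental cells the sum was 1435 to 1562 CPM. For the difference of the Dox effects, 7 of the 10 passed as lower, beside 16.5% of all genes. The part of these markers in the changes of the G1 regulators was not tested. The medians of these 6 lists were 0.22, 0.04, -0.04, -0.07, -0.60 and -0.47 in the order given, beside 0.00 for all genes.

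Lineage markers in shMCM7 cells were counted beside the 42.9% of all genes that passed there, 20.6% higher and 22.4% lower. Of 7 melanocyte markers 5 were tested, 1 rose and 2 fell. MITF rose by 0.34 ± 0.0838 (log2, SE, FDR 0.0093), at a mean of 42.3 CPM with induction and 33.3 CPM without. Its difference of Dox effects, 0.18 ± 0.114 (FDR 0.267), did not pass. DCT was lower by 1.43 ± 0.214 and PMEL by 0.92 ± 0.188 on the log2 scale, both at no more than 5.24 CPM. SOX10 (-0.14 ± 0.0746, FDR 0.153) and S100B (0.04 ± 0.0774, FDR 0.714) did not pass. Of 6 epithelial markers 1 rose and 1 fell, EPCAM by 1.05 ± 0.179 at 0.775 to 0.837 CPM with induction, and CLDN4 by -0.99 ± 0.119 (log2, SE). Epithelial markers also differed between the shMCM7 and parental cells. Without Dox, 3 of 6 were higher in shMCM7 cells and 0 lower, beside 2.97% of all genes, namely the keratin genes KRT8 at 1.32-fold (FDR 0.0114), KRT18 at 1.33-fold (FDR 0.00986) and KRT7 at 1.47-fold (FDR 0.0177). With Dox, 4 of 6 were higher in shMCM7 cells and 1 was lower, beside 48% of all genes, with a median log2 difference of 0.41. The 6 markers summed to 369 to 435 CPM in uninduced and 381.5 to 492 CPM in induced shMCM7 cells, and to 297 to 323 CPM in parental cells. Their part in the differences of the G1 regulators between these cells was not tested.

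In A549 no regulator passed the test between labelled groups, whose MCM7 levels did not follow the labels. With Dox against noDox in libraries labelled shMCM7, 0 of 9 passed, beside 0 of 13550 genes (0%), and at an unadjusted p under 0.05 there were 61 genes and 0 regulators. In libraries labelled parental, 0 of 9 passed, beside 0 of 13494 genes (0%), with 1137 genes and 0 regulators at an unadjusted p under 0.05. DESeq2's Wald test passed 0 regulators in both, with 0 and 14 genes. The log2 fold change of CDK6 was 0.10 ± 0.521 (SE) in the first comparison and -0.82 ± 0.381 (SE, FDR 0.506) in the second, with 1 library of each of 3 groups far from the other 2.

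By library, CDK6 was the regulator that varied most in A549. It stood at 113, 117 and 312 CPM in libraries 1, 2 and 3 labelled shMCM7 Dox, at 117, 283 and 104 CPM in those labelled shMCM7 noDox, at 114, 314 and 119 CPM in those labelled parental noDox, and at 108, 96.9 and 105 CPM in those labelled parental Dox. The 3 libraries with 283 to 314 CPM of CDK6 were shMCM7 Dox 3, shMCM7 noDox 2 and parental noDox 2, which had 88.6 to 99.7 CPM of MCM7. CDKN1B stood at 27.4, 27.3 and 47.0 CPM, at 26.0, 45.5 and 26.6 CPM, at 28.6, 46.2 and 25.5 CPM, and at 26.1, 27.7 and 27.8 CPM in the same order of groups. Its 3 high libraries were those with high CDK6. CCND1 stood at 293, 280 and 381 CPM, at 297, 401 and 269 CPM, at 342, 382 and 305 CPM, and at 329, 315 and 323 CPM in that order, and its 3 highest libraries were again shMCM7 Dox 3, shMCM7 noDox 2 and parental noDox 2, though closer to the rest.

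CCND3 was also highest in these 3 libraries, at 345, 363 and 334 CPM against 262 to 331 CPM in the other 9. CCNE1 was lowest in them, at 66.4, 63.1 and 63.1 CPM against 72.5 to 81.3 CPM in the other 9. CCNE2 had its lowest values in 2 of them, at 30.8 CPM in shMCM7 Dox 3 and 35.7 CPM in shMCM7 noDox 2, whereas parental noDox 2, at 38.2 CPM, lay among the other libraries, which ranged from 37.6 to 49.7 CPM. CDKN2C stood at 25.3, 23.5 and 21.6 CPM in the 3 libraries and at 16.2 to 21.6 CPM in the other 9, where shMCM7 Dox 2 reached the level of parental noDox 2. CDK4 stood at 228, 245 and 251 CPM and CDK2 at 96.0, 103 and 103 CPM in the 3 libraries, and both overlapped the others, at 217 to 236 CPM for CDK4 and 90.6 to 107 CPM for CDK2. These values are given by library, with no mean, fold change or test over the 3 libraries. CDK6, CDKN1B, CCND1, CCND3 and CCNE1 set the 3 libraries apart from the other 9. The share of all genes that do the same was not counted, so this is not read as particular to the regulators. In A375, uninduced shMCM7 library 1, with 131 CPM of MCM7, had 240 CPM of CDK6 and 25.8 CPM of CDKN1B, within the range of the other uninduced and parental libraries.

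**Figure D4:**
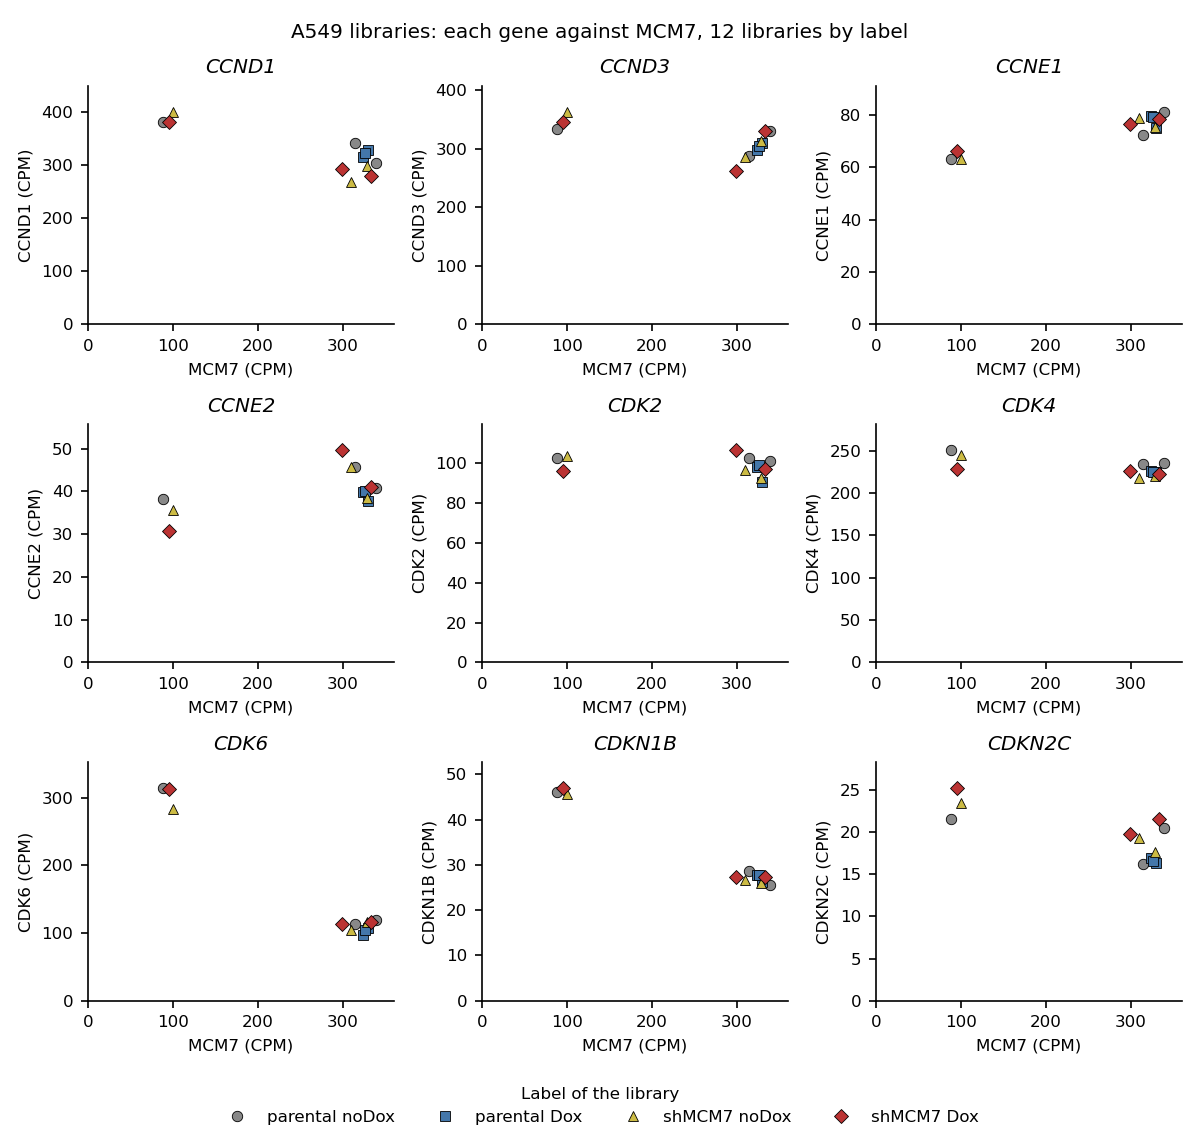
CPM of 9 regulators against CPM of MCM7 in the 12 A549 libraries, 1 point a library, with the marker showing the label. The 3 points below 100 CPM of MCM7 carry 3 different labels and lie at 283 to 314 CPM of CDK6 and at 45.5 to 47.0 CPM of CDKN1B, whereas the other 9 lie at 96.9 to 119 and at 25.5 to 28.6 CPM.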

How the data were processed

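The authors deposited 1 table of read counts per gene for each of 24 libraries, in whole numbers and not normalized, with genes named by Ensembl identifier. The submitters' processing notes name bcl2fastq 2.19, Trimmomatic, STAR 2.7.1, featureCounts and edgeR, and the build GRCh38.p10. The annotation and the strand setting of the counting are not given in the sources used here. Symbols, positions and exon lengths were taken from GENCODE 29 (GRCh38), in which 21349 of 21386 identifiers were found. Groups were taken from the labels, which number 3 replicates a group. The study describes its replicates as biological. Where replicates are not separate cultures, p-values measure technical spread. Within groups, chi-square per degree of freedom between replicates was 1.95 or more, so none were merged.

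Counts were tested in R 4.3.3 with edgeR 4.0.16 (filterByExpr, TMM, glmQLFit and glmQLFTest), fitted on the libraries of the 2 groups compared or, for the difference of Dox effects, on 12 libraries. Passing means an FDR under 0.05. A call also needs an unadjusted p under 0.01 and a fold change of at least 1.5. Shares were tested with an exact permutation test in Python 3.11.15. Alternatives were DESeq2's size factors, the Wald test of DESeq2 1.42.0, no filter, at least 10 counts in every library, a dispersion from 12 libraries, glmTreat, the replicate block, shares without exon length, leaving out each library in turn, and leaving out libraries whose MCM7 (limits of 150 and 250 CPM) goes against the label. Like patterns were ranked over genes with a mean of at least 1 CPM, on log2 CPM with a prior count of 2. The fit was tested on simulated data.

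The regulators and the gene lists were chosen with earlier results of these data known. Named are all 10 regulators, MCM7, up to 3 called genes a list in induced A375 shMCM7 cells, and the 3 genes most like each of the 3 regulators with the smallest p there. Genes that overlap a regulator, CDK7, CCNA2, KRT7, KRT8, KRT18, SOX10, MITF, S100B, MLANA and TYR were named after their values were seen.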

Additional observations from a re-analysis of the deposited data

Results flagged for a closer look

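In A375 the effect of Dox differed between shMCM7 and parental cells for 5 regulators, by the interaction term of edgeR's quasi-likelihood fit adjusted by Benjamini-Hochberg over 16334 genes. The difference, shMCM7 minus parental on the log2 scale, was 1.33 for CCND1, 0.41 for CDK6, 0.30 for CDKN1B, -0.37 for CCND3 and -0.18 for CDK4. CCND1, CDK6 and CCND3 passed in every fit that left out 1 library, whereas CDK4 passed in 1 of 12 and CDKN1B in 6 of 12. Among all genes 30% passed this test.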

How the results depend on the processing

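In A375 shMCM7 cells, CCND1 was the 1 regulator called in all 13 alternatives, and 4 or 5 regulators passed in all but the test against a 1.5-fold change, which passed CCND1. For the difference of the Dox effects, the number passing was 3 to 4 when 1 library was left out. Same-numbered libraries of induced and uninduced shMCM7 cells correlated in their deviations at r = 0.257, 0.0884 and 0.235 across genes, 1 of them under 0.1, so the numbers were not taken as pairs, although each library correlated best with its own number. With the replicate block, 1 regulator passed between uninduced shMCM7 and parental cells (CDKN2C), the number stayed at 5 in induced shMCM7 cells, CCNE1 no longer passed against parental cells on Dox, and no other regulator changed its side of the threshold. Over all genes, 478 passed between the uninduced groups in the main fit, 2578 with the block, 944 with the Wald test and 249 to 580 with 1 library left out. In parental A375 cells 57 genes passed with the block and 45 with the Wald test, against 0. With the block, the genes passing rose from 6908 to 7933 in A375 shMCM7 cells and from 4895 to 5883 for the difference of Dox effects. They fell from 7726 to 7511 between induced shMCM7 and parental cells on Dox. The 4 A549 libraries whose MCM7 goes against their label were also left out. This picks libraries by a measured level and leaves 1 library, shMCM7 Dox 3, against 2 in cells labelled shMCM7. More regulators, and more genes at large, passed in that fit than with all libraries. The fit is no test of Dox or of the knockdown and supports nothing here. Leaving out parental noDox library 3 in A549 gave 383 genes passing and 0 regulators.

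Values near 0 changed sign. Between the uninduced A375 groups, CDK2 was at 0.0031 with DESeq2's size factors or its Wald test, 0.0022 with no filter, 0.0035 with at least 10 counts and 0.0028 with the dispersion of 12 libraries (log2). Against parental cells on Dox, CCNE2 was at 0.0118 with no filter and 0.0028 with at least 10 counts. With 1 library left out, the log2 fold changes ranged from -0.062 to 0.14 for CCNE2 in shMCM7 cells, -0.028 to 0.17 for CCNE2 in the difference of Dox effects and -0.088 to 0.11 for CCNE2 on Dox, and between the uninduced groups from -0.14 to 0.12 for CCND1, -0.060 to 0.11 for CCNE1, -0.13 to 0.0017 for CCNE2, -0.036 to 0.047 for CDK2, -0.042 to 0.059 for CDK6 and -0.026 to 0.10 for CDKN1B. The parental share of CCNE2 ranged from -1.47 to 0.21 points. None of these passed a test. A549 was shallower, and values with 1 library in a group rest on that library.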
